A study of Mus musculus with 4 samples.

Results

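The TGF-beta ligand genes Tgfb1, Tgfb2 and Tgfb3, the activin subunit genes Inhba and Inhbb and the TGF-beta receptor genes Tgfbr1, Tgfbr2 and Tgfbr3 were followed across the cell classes of mouse mammary tumours. These 8 genes, 5 for ligands and 3 for receptors, were taken by symbol from a gene table of 55472 entries. Single cells were profiled from 4 tumours of 3 female mice aged 13 to 14 weeks, in a study of how cells of metastatic breast cancer vary. All mice carried MMTV-PyMT, K14Cre and Rosa-tdTomato on an FVB background. The MMTV promoter drives the polyoma middle T oncogene in mammary epithelium, and the human keratin 14 promoter drives Cre, which switches on the tdTomato reporter. Tumour 1 was a pool over several glands of mouse 1 and tumour 2 an inguinal tumour of mouse 2. Mouse 3 gave tumour 3 (thoracic) and tumour 4 (inguinal), which were summed as 1 animal. Every sample was a tumour, so the comparisons were between cell classes and the 3 mice were the replicates.

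TGF-beta ligands are secreted in a latent form and act, once released, on a complex of the type II receptor Tgfbr2 and the type I receptor Tgfbr1, a kinase that phosphorylates SMAD proteins. Tgfbr3, also called betaglycan, is a coreceptor without kinase activity that presents ligand, Tgfb2 above all, to Tgfbr2. Inhba and Inhbb encode the beta subunits of activins and inhibins. Of these, activins signal through activin receptors to the same SMADs. In the mammary gland the pathway restrains epithelial growth, drives matrix production by fibroblasts and shapes the responses of immune cells.

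The files, on build GRCm38, were matched to the GENCODE M21 annotation for the positions of the genes. Tgfb1 lies on the plus strand at chr7:25687002-25705077, Tgfb2 on the minus strand at chr1:186622792-186705989 and Tgfb3 on the minus strand at chr12:86056745-86079041. Inhba lies on the plus strand at chr13:16011851-16031621 and Inhbb on the minus strand at chr1:119415465-119422248. Tgfbr1 lies on the plus strand at chr4:47353222-47414931, Tgfbr2 on the minus strand at chr9:116084293-116175360 and Tgfbr3 on the minus strand at chr5:107106570-107289629.

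The RefSeq promoter table (GRCm38.p6, 300 bases around each gene's start) held entries for 6 of the 8 genes and none for Tgfb3 and Tgfbr3. It was searched on both strands for the TATA box TATAAA, the GC box CCGCCC, the E-box CACGTG, the CRE TGACGTCA, the AP-1 motif TGANTCA and the SMAD motif GTCTAGAC. Of the 32851 promoters in the table, 13.6% held TATAAA, 35.7% CCGCCC, 7.15% CACGTG, 1.79% TGACGTCA, 7.81% TGANTCA and 0.213% GTCTAGAC. The promoters of 3 ligand genes with unlike patterns over the cell classes are shown 5′ to 3′ on the gene's own strand, with every match in capitals. They are Tgfb1 at chr7:25686752-25687051, Tgfb2 at chr1:186705940-186706239 and Inhba at chr13:16011601-16011900.
Tgfb1: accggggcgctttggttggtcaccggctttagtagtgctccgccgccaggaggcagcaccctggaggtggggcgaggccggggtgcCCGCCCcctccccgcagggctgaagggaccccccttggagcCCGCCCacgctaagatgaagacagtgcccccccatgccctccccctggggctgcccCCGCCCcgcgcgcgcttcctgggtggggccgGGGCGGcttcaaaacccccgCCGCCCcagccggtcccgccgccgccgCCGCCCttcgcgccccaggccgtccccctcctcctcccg
Tgfb2: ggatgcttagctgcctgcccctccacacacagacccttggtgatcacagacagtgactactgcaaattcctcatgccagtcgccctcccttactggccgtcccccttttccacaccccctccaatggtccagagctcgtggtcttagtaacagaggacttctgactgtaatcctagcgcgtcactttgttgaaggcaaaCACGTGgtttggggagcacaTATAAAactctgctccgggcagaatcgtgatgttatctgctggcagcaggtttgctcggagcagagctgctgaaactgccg
Inhba: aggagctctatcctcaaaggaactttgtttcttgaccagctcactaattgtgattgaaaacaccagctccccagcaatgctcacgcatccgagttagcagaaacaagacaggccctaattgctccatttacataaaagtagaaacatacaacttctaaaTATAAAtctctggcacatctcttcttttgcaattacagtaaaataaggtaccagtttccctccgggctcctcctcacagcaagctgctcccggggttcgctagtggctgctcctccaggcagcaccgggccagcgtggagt
The Tgfb1 window held 6 GC boxes and no TATAAA, and 77.0% of its bases were G or C, against a median of 52.7% over all promoters in the table. The Tgfb2 window, at 54.3% G or C, held 1 TATAAA and 1 CACGTG, and the Inhba window, at 47.7%, held 1 TATAAA. The Inhbb window held 1 GC box, the upstream Tgfbr1 window 2, and the Tgfbr2 window none of these letters. A match is a description of the letters, not of binding.

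Cells were placed in classes by the unique molecular identifiers (UMIs, counted transcripts) of gate genes. The non-luminal gates came first and were Krt5 and Krt14 (at least 3 together) for basal, Col1a1 and Col3a1 (10) for fibroblast, Rgs5 (3) for mural, Cdh5 and Pecam1 (2) for endothelial, C1qa and C1qb (5) for macrophage and Cd3g and Trbc2 (2) for T. Cells in none of these with at least 3 UMIs of Krt8 and Krt18 were luminal. Of 36138 cells kept, 20499 were luminal, 930 basal, 1487 fibroblast, 238 mural, 622 endothelial, 2996 macrophage and 353 T. A further 8803 passed no gate, and 210 passed several non-luminal gates and were left out. The libraries held between 20281799 and 39370565 UMIs, with a median per cell barcode from 1922.5 to 3281, and any pair of libraries shared between 96 and 129 barcode sequences.

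Markers outside the gates were high in the class they belong to, with limits that bear on the ligands. The 5 luminal markers (Epcam, Cdh1, Krt19, Cldn3 and Cldn4), all detected in every class, summed to 1247 UMIs in 1000000 of the class (CPM) in luminal cells (range over mice 1232 to 1275). In basal cells they summed to 1358 CPM (811 to 2049), in T cells to 637 (612 to 684), in mural cells to 613 (575 to 659), in endothelial cells to 423 (318 to 486), in macrophages to 364 (314 to 445) and in fibroblasts to 217 (193 to 233). At least 3 luminal keratin UMIs were held by 53.0% of basal, 34.5% of mural, 20.4% of endothelial, 20.4% of T, 13.5% of macrophage and 10.6% of fibroblast cells. In tumour 2 this was so for 115 of 129 basal cells (89.2%). The basal gate thus held many cells with transcripts of both epithelial lineages, and results for it are given with and without them. The T gate also held markers of natural killer and other cytotoxic cells (Ncr1, Klrb1c, Nkg7 and Gzma), which summed to 1613 CPM (1281 to 1909) beside 1200 CPM (993 to 1351) of the T markers Cd3e, Cd3d, Lck, Trac and Cd2. The basal markers summed to 327 CPM (275 to 404) in mural cells beside 619 CPM (585 to 658) in basal cells, but in mural cells 315 CPM of this was Mylk, a gene of smooth muscle too. Krt17 was at 1.46 CPM there against 509 CPM in basal cells, and Trp63, Oxtr and Cnn1 were at 2.19, 2.65 and 5.58 CPM. The neutrophil markers S100a8, S100a9 and Retnlg reached 3025 CPM in the mural cells and 1515 CPM in the endothelial cells of tumour 4, with Csf3r at 0 in both classes.

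Levels are given as CPM of the UMIs summed over the cells of a class in a mouse, as the mean ± SD over 3 mice. Fold changes come from edgeR's quasi-likelihood test on the same sums with mouse as a block, on the log2 scale ± standard error (SE). The Benjamini-Hochberg adjustment covered the 9105 genes that passed the filter on low counts, and a call is an adjusted p under 0.05. All 8 genes passed. The fitted changes weight sums by their depth, so their sign can differ from that of the mean CPM where mice differ.

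Tgfb1, the isoform best known from blood and immune cells, was highest in T, endothelial and macrophage cells and low in both epithelial classes. In T cells it was at 18.4, 27.1 and 54.1 CPM in mice 1, 2 and 3, in endothelial cells at 55.6, 13.1 and 29.3 CPM, and in macrophages at 32.2, 17.3 and 25.0 CPM. All 9 of these values lay above the luminal ones, which were 7.18, 3.47 and 3.93 CPM, while the ranges of the 3 classes overlapped each other. Tgfb1 rose against luminal cells by 3.15 ± 0.39 in T cells (edgeR adjusted p = 7.22e-07), by 2.62 ± 0.24 in macrophages (adjusted p = 7.32e-10) and by 2.46 ± 0.34 in endothelial cells (adjusted p = 1.99e-06), in 3 of 3 mice each. The T value rested on 34 UMIs. Without mouse 3 it was 2.21 and was no longer called (adjusted p = 0.0588). Fibroblasts held 11.1 ± 2.86 CPM, 1.04 ± 0.34 above luminal cells on the log2 scale (adjusted p = 0.0133, 3 of 3 mice), a call that was lost without mouse 3 (log2 change 1.32, adjusted p = 0.0728), without the mouse block (1.00, adjusted p = 0.0902), with gate minimums doubled (0.89, adjusted p = 0.121) and without luminal-keratin cells (1.03, adjusted p = 0.0526). Mural cells held 4 UMIs in all (8.78 ± 11.6 CPM) and basal cells 12 (3.75 ± 0.90 CPM), and neither differed from luminal cells by the test. In the order of levels, 1 pair of neighbours of 6 differed, macrophages above fibroblasts by 1.59 ± 0.33 (adjusted p = 0.00022, 3 of 3 mice). T and endothelial cells, at the top of the order, did not differ by the test (log2 difference 0.70 ± 0.40, adjusted p = 0.268), in a contrast where 9.17% of all genes were called higher in T cells. After every cell was thinned to 1000 UMIs, 3.73% of T cells, 3.61% of endothelial cells and 2.91% of macrophages still held a Tgfb1 UMI, against 0.436% of luminal cells. Unthinned, the shares were 9.07%, 7.24%, 5.91% and 1.59%.

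Tgfb2, an isoform of epithelial and developing tissues, had the opposite order, with the immune classes lowest. Luminal cells held 26.5, 22.2 and 29.5 CPM in mice 1, 2 and 3, basal cells 42.9, 23.0 and 22.1 CPM, and mural cells 43.9, 23.9 and 30.7 CPM, so these 3 classes overlapped. Macrophages held 4.13, 6.17 and 6.34 CPM, below every luminal value, and fell by 1.94 on the log2 scale (SE 0.25, edgeR adjusted p = 2.68e-07, 3 of 3 mice). T cells held 9.36 ± 3.53 CPM on 8 UMIs and fell by 1.41 (SE 0.45, adjusted p = 0.0313). The T call did not hold without mouse 2 (log2 change -1.38, adjusted p = 0.0620), mouse 3 (-1.47, 0.290), tumour 3 (-1.44, 0.0650), tumour 4 (-1.41, 0.0810) or the mouse block (-1.40, 0.0622). In fibroblasts (18.9 ± 6.22 CPM) the gene fell by 0.57 (SE 0.23, adjusted p = 0.0443, 3 of 3 mice), a call that held in 7 of 16 alternative settings and was lost without mouse 3 (-0.45, adjusted p = 0.431), tumour 3 (-0.45, 0.129), tumour 4 (-0.55, 0.105) or the mouse block (-0.54, 0.160). This was also the 1 pair of neighbours in the order that the test separated. Endothelial cells held 0, 18.4 and 20.3 CPM and a log2 change of -0.73 ± 0.29 (adjusted p = 0.0544). That change was called without mouse 2 (-0.86, adjusted p = 0.0345), without tumour 3 (-0.90, 0.0379) and in 5 other settings. Mural and basal cells, highest and next, did not differ by the test (0.24 ± 0.39, adjusted p = 0.815), where 5.94% of all genes were called higher in mural cells.

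Tgfb3 had its highest mean level in fibroblasts, followed by basal, luminal and mural cells. Fibroblasts held 142, 97.9 and 84.8 CPM in mice 1, 2 and 3, luminal cells 82.8, 40.2 and 82.7 CPM, and basal cells 81.1, 49.4 and 85.1 CPM. Fibroblasts were above luminal cells in each mouse sum, but the nearly equal values of mouse 3 joined tumours that went opposite ways. In tumour 3 fibroblasts held 59.2 CPM (exact Poisson interval 49.1 to 70.7), below luminal cells at 81.7 CPM (77.4 to 86.1), and in tumour 4 they held 125 CPM against 83.5 CPM. The rise was 0.59 ± 0.20 on the log2 scale (edgeR adjusted p = 0.0155) and was not called without mouse 2 (0.26, adjusted p = 0.291) without tumour 4 (0.49, adjusted p = 0.0996) or without the mouse block (0.58, adjusted p = 0.162). The gap from fibroblasts to basal cells, next in the order, was not called (0.52 ± 0.23, adjusted p = 0.0856), where 19.8% of all genes were called higher in fibroblasts. It was called without mouse 3 (0.93, adjusted p = 0.0293) and without tumour 3 (0.67, adjusted p = 0.0146). Macrophages, at 20.3 ± 3.33 CPM, fell by 1.46 on the log2 scale against luminal cells (SE 0.22, adjusted p = 3.39e-06). Endothelial cells, at 21.9 ± 14.3 CPM, fell by 1.38 (SE 0.28, adjusted p = 0.000329), each in 3 of 3 mice. T cells held 39.9 ± 14.1 CPM and a change of -0.79 ± 0.33 that was not called (adjusted p = 0.102), but was without mouse 2 (-0.96, adjusted p = 0.0328). Mural cells held 63.3 ± 27.3 CPM and did not differ from luminal cells by the test. None of the 6 neighbouring pairs was separated by the test. Thinned to 1000 UMIs per cell, a Tgfb3 UMI was in 8.88% of fibroblasts, 6.07% of luminal cells, 4.04% of T cells and 1.58% of macrophages, and unthinned in 21.2%, 19.3%, 7.65% and 4.24%.

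**Figure D1:**
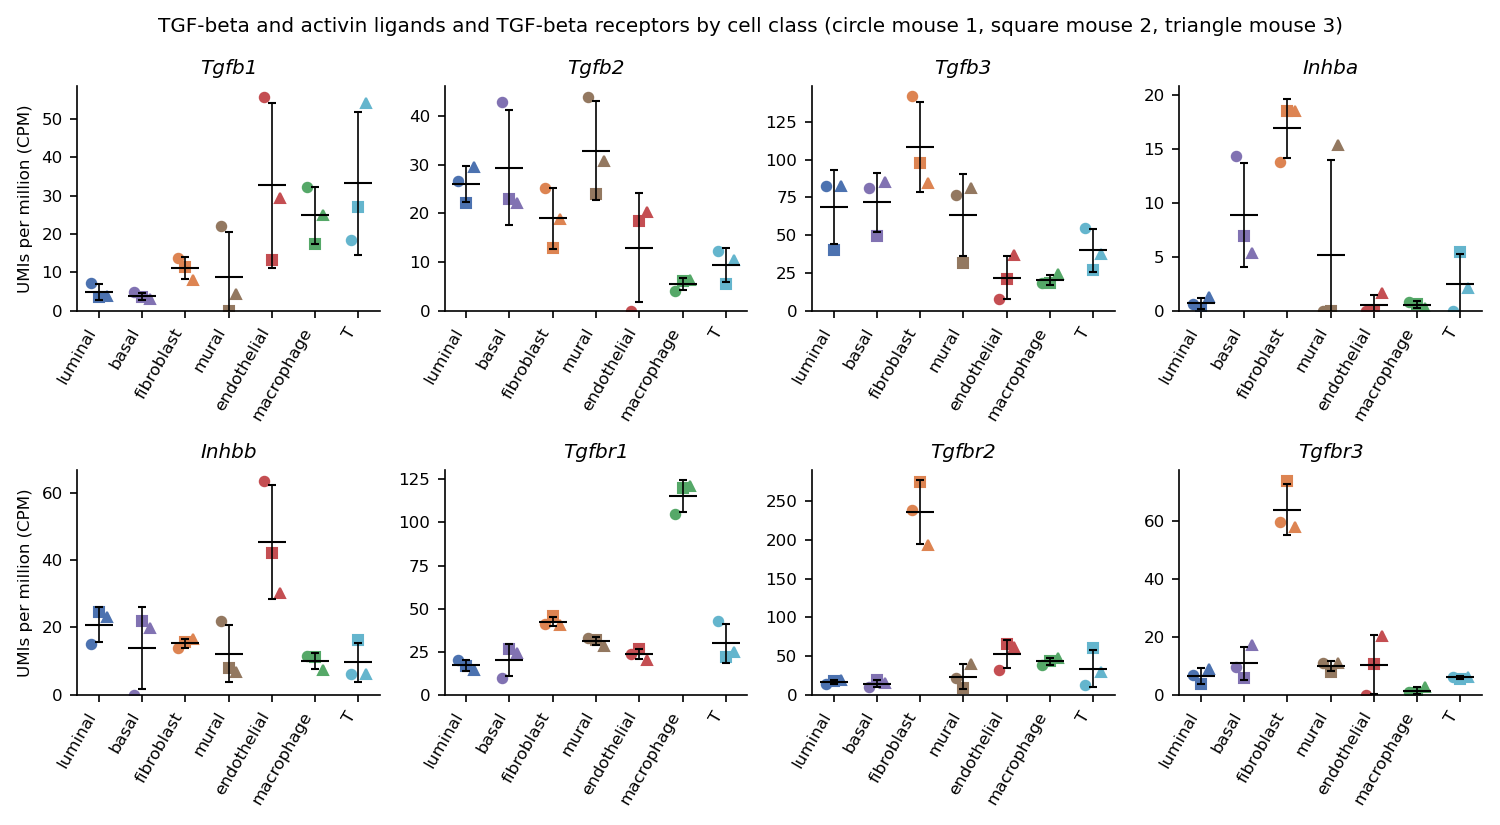
Level of each gene in the 7 cell classes, in CPM (vertical axis from 0, own scale per gene); points are mice, horizontal marks and bars the mean ± SD of 3 mice. The fibroblast points of Tgfbr2 and Tgfbr3 and the macrophage points of Tgfbr1 lie above all points of the other classes, while the Tgfb1 points of T, endothelial and macrophage cells overlap.

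As percentages of the luminal class, Tgfb3 and the luminal markers were close in immune and endothelial cells, but not in mural cells or fibroblasts. In mural cells Tgfb3 was at 92.3% and the markers at 49.15%, and in fibroblasts at 158% and 17.4%. Tgfb3 was at 29.6% of its luminal level in macrophages, 31.9% in endothelial cells and 58.2% in T cells, where the summed luminal markers were at 29.2%, 34.0% and 51.1% of theirs. Tgfb2 was at 21.3% of its luminal level in macrophages, 49.5% in endothelial cells and 35.9% in T cells. For Inhbb these were 47.8%, 217% and 45.9%, and Tgfb1 was far above the marker percentage in the same classes, at 511%, 673% and 684%. When cells with luminal keratins were left out of the non-luminal classes, the luminal markers fell to 135 CPM in macrophages (94.0 to 161) and Tgfb3 to 9.36 ± 2.32 CPM, while Tgfb1 was at 27.6 ± 5.47 CPM. In endothelial cells the markers were then at 128 CPM (100 to 149), Tgfb3 at 9.69 ± 12.9 and Tgfb1 at 38.6 ± 26.8 CPM, and in T cells the markers were at 251 CPM (194 to 295), Tgfb3 at 29.2 ± 5.49 and Tgfb1 at 42.4 ± 32.7 CPM. The part of luminal transcripts in the Tgfb2, Tgfb3 and Inhbb levels of these classes was not tested. Basal cells without luminal keratins (437 cells, with too few from mouse 2 for a sum) held Tgfb3 at 31.3 ± 4.33 CPM in 2 mice, beside luminal markers at 390 CPM (310 to 470). There Tgfb3, on 34 UMIs, fell by 1.18 on the log2 scale against luminal cells (edgeR adjusted p = 0.0245). The basal gate as a whole showed 0.07 ± 0.21 (adjusted p = 0.928). In the first contrast the basal cells were chosen for under 3 luminal keratin UMIs and the luminal cells for at least 3. Transcripts that go with luminal keratins would fall there by this choice, so the contrast cannot tell that from a lower basal level. The basal cells without luminal keratins held Tgfb2 at 19.6 ± 12.1 CPM (13 UMIs), Inhbb at 4.4 ± 6.3 (8 UMIs) and Tgfbr2 at 8.58 ± 1.17 (8 UMIs). Tgfb1 was at 2.2 ± 3.1 CPM (4 UMIs), Inhba at 3.32 ± 4.70 (6 UMIs) and Tgfbr1 at 21.6 ± 3.93 (24 UMIs). Fibroblasts without luminal keratins held luminal markers at 102 CPM (86.8 to 113) and Tgfb3 at 103 ± 22.9 CPM. Their rise over luminal cells, 0.49, was then not called (adjusted p = 0.0618).

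**Figure D2:**
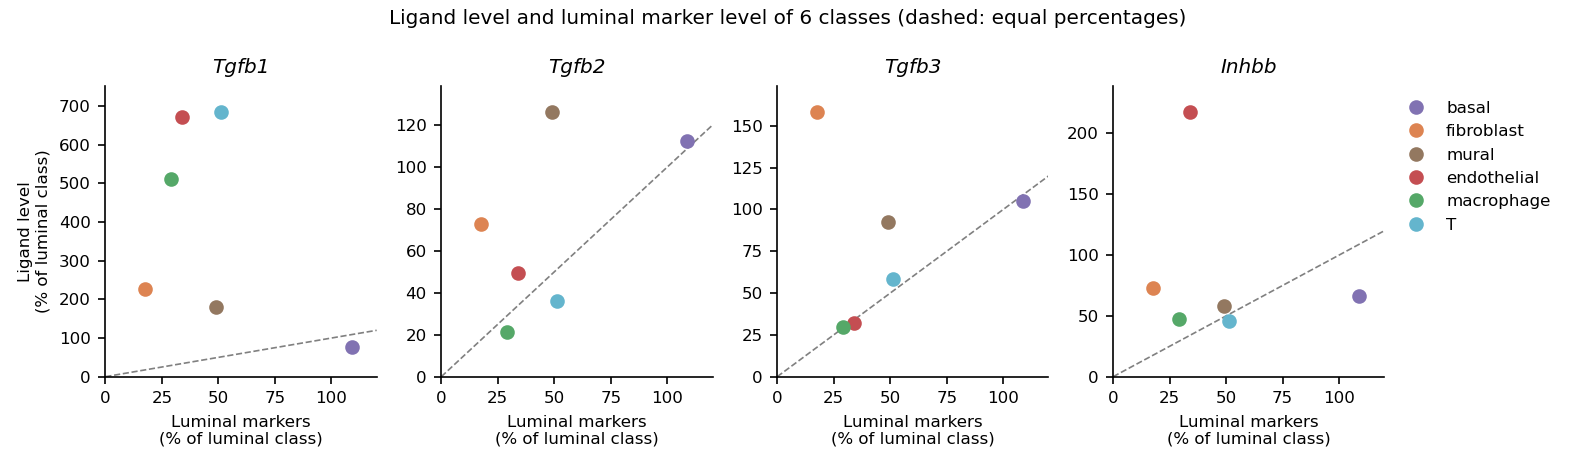
Level of 4 ligand genes (vertical axis) and summed level of 5 luminal markers (horizontal axis), each as a percentage of the luminal class, in the other 6 classes; the dashed line marks equal percentages. For Tgfb3 the macrophage (29.6% and 29.2%), endothelial (31.9% and 34.0%) and T points (58.2% and 51.1%) lie near the line, while for Tgfb1 these classes lie far above it. The Tgfb3 points of mural cells (92.3% and 49.15%) and fibroblasts (158% and 17.4%) lie above the line.

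The mixture of the 3 TGF-beta isoforms differed between classes in its share of Tgfb1. Of the UMIs of Tgfb1, Tgfb2 and Tgfb3 together, Tgfb1 made up 48.8% ± 33.8 in endothelial cells, 48.4% ± 9.43 in macrophages and 40.0% ± 16.5 in T cells. The lowest mouse among these stood at 21.4%. In the other classes Tgfb1 made up 4.94% ± 1.42 (luminal), 3.67% ± 0.89 (basal), 8.04% ± 1.11 (fibroblast) and 6.39% ± 8.02 (mural), with the highest mouse at 15.4%. The observed shares of these groups of classes did not overlap, but the bounding values were 3 of 14 UMIs in the T cells of mouse 1 (exact Clopper-Pearson interval 4.66% to 50.8%) and 2 of 13 in the mural cells of mouse 1 (1.92% to 45.5%), whose intervals overlap. Tgfb2 took 27.3% ± 5.69 in luminal and 27.9% ± 6.99 in basal cells, against 13.7% ± 3.19 in fibroblasts and 11.3% ± 3.57 in macrophages. Tgfb3 took 78.2% ± 2.16 in fibroblasts, with all 3 mice between 75.9% and 80.2%, and 67.8% ± 5.83 in luminal cells, with mice between 61.1% and 71.2%. These are shares of UMIs with no correction for gene length or capture, so they compare classes and do not rank the isoforms. They also include the cells with luminal keratins. With those cells left out, Tgfb1, Tgfb2 and Tgfb3 were at 27.6, 2.03 and 9.36 CPM in macrophages. Endothelial cells then held 38.6, 4.45 and 9.69 CPM, and T cells 42.4, 3.2 and 29.2 CPM. The Tgfb1 shares of these classes therefore depend on whether such cells are counted. The endothelial value of mouse 1 (87.5% Tgfb1) rested on 8 UMIs, with an exact Clopper-Pearson interval from 47.4% to 99.7%. Intervals here and below are at 95% and cover counting error only.

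**Figure D3:**
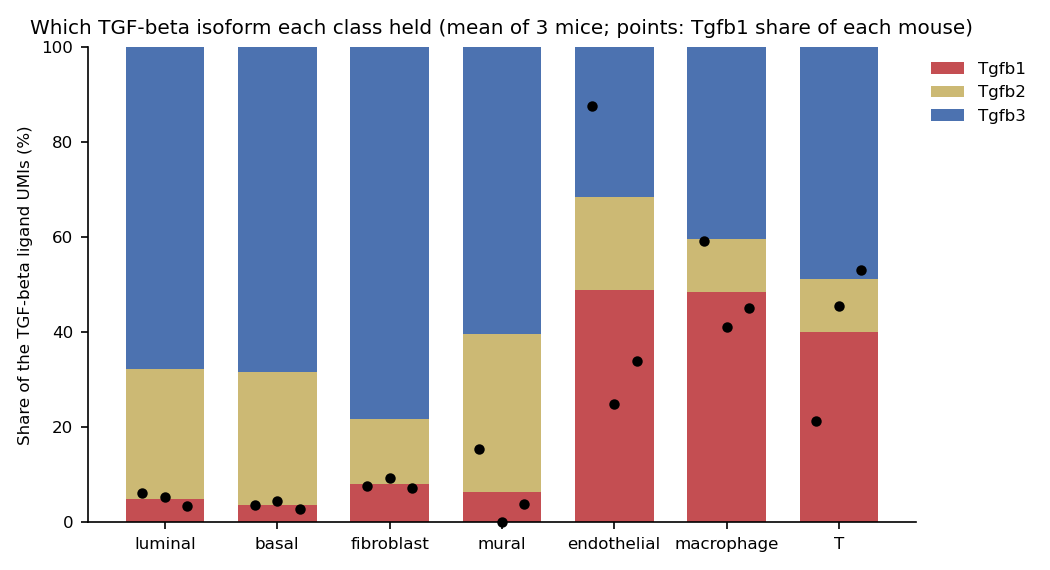
Share of Tgfb1, Tgfb2 and Tgfb3 in their summed UMIs (vertical axis, %) in each class, as the mean of 3 mice; black points give the Tgfb1 share of each mouse. All 9 points of endothelial, macrophage and T cells lie at 21.4% or more, and all points of the other classes at 15.4% or less; these bounding points are 3 of 14 and 2 of 13 UMIs, with overlapping counting intervals.

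Inhba, the activin A subunit, was a gene of the fibroblasts. It was at 13.8, 18.5 and 18.5 CPM in the fibroblasts of mice 1, 2 and 3 and at 0.636, 0.178 and 1.22 CPM in luminal cells. Every fibroblast value lay above every luminal one, and the rise was 4.64 ± 0.52 (edgeR adjusted p = 2.20e-08, 3 of 3 mice). Basal cells held 14.3, 6.89 and 5.32 CPM, a rise of 3.21 ± 0.63 (adjusted p = 0.000986, 3 of 3 mice). Those were 23 UMIs in 11 of 930 basal cells, and the 6 UMIs of mouse 2 came from 1 cell of 129. With luminal-keratin cells left out the basal rise was 2.64 and not called (adjusted p = 0.0773). Mural cells rose by 3.56 ± 0.95 (adjusted p = 0.00971), but all 7 UMIs came from mouse 3 and the other 2 mice held 0. The difference between fibroblasts and basal cells was 1.43 ± 0.60 and not called (adjusted p = 0.0634), except without mouse 2 (1.51, adjusted p = 0.0214) and in 3 other settings. Endothelial cells, macrophages and T cells held 2, 3 and 2 UMIs in all. Over the series Inhba had 214 UMIs, the fewest of the 8 genes, and it failed the low-count filter without mouse 3, tumour 3 or tumour 4. Its calls therefore have no check against leaving these out.

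Inhbb, the activin B subunit, was highest in endothelial cells, at 63.6, 42.1 and 30.1 CPM, against 15.0, 24.5 and 23.0 CPM in luminal cells. The endothelial value was the higher in each of the 3 mice, yet the change of 0.61 ± 0.28 was not called (edgeR adjusted p = 0.0943). With the DESeq2 Wald test it was 0.83 and called (adjusted p = 0.0485). Fibroblasts (15.3 ± 1.37 CPM), basal cells (13.9 ± 12.1) and mural cells (12.2 ± 8.51) did not differ from luminal cells by the test, though mural cells did without mouse 1 (-1.83, adjusted p = 0.0315). Macrophages, at 9.95 ± 2.41 CPM, fell by 0.98 on the log2 scale (SE 0.26, adjusted p = 0.00265, 3 of 3 mice), and without mouse 3 by 0.58, no longer called (adjusted p = 0.270). T cells held 9.55 ± 5.83 CPM on 7 UMIs. None of the 6 neighbouring pairs in the order was separated by the test. In mural cells without luminal keratins (156 cells) Inhbb was at 0 UMIs.

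Tgfbr1, the type I receptor kinase, was a macrophage gene in these tumours. Macrophages held 105, 120 and 121 CPM in mice 1, 2 and 3, with the highest value in any other class at 45.4 CPM. The rise over luminal cells (17.0 ± 3.02 CPM) was 3.02 ± 0.15, an 8.11-fold change (edgeR adjusted p = 2.22e-15), and that over fibroblasts, the next class, was 1.70 ± 0.18 (adjusted p = 6.42e-09), each in 3 of 3 mice. In that contrast 23.6% of all genes were called higher in macrophages. Fibroblasts, at 42.4 ± 2.60 CPM, rose over luminal cells by 1.32 ± 0.18 (adjusted p = 7.97e-07, 3 of 3 mice). Mural (31.1 ± 2.31), T (29.8 ± 11.4), endothelial (23.5 ± 3.00) and basal cells (20.1 ± 9.20 CPM) did not pass against luminal cells, and below the macrophages no neighbours in the order were separated. Basal cells did pass without mouse 1 (0.69, adjusted p = 0.0419). Thinned to 1000 UMIs, 12.1% of macrophages held a Tgfbr1 UMI, against 4.61% of fibroblasts and 1.72% of luminal cells, and unthinned the shares were 24.7%, 11.3% and 6.02%.

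Tgfbr2, the type II receptor that binds ligand, was a fibroblast gene. Fibroblasts held 238, 275 and 194 CPM in mice 1, 2 and 3, above every value in any other class, of which the highest was 65.7 CPM in endothelial cells. The rise over luminal cells (13.3, 17.5 and 18.7 CPM) was 3.78 ± 0.18, a 13.7-fold change (edgeR adjusted p = 9.91e-16). The rise over endothelial cells, the next class, was 2.17 ± 0.23 (adjusted p = 1.87e-08, 3 of 3 mice), where 14.7% of all genes were called higher in fibroblasts. Endothelial cells (52.8 ± 18.4 CPM) rose over luminal cells by 1.60 ± 0.24 (adjusted p = 4.55e-06) and macrophages (43.1 ± 4.83 CPM) by 1.62 ± 0.19 (adjusted p = 4.30e-08), each in 3 of 3 mice. T cells held 12.2, 59.7 and 29.2 CPM and a rise of 1.02 ± 0.35 (adjusted p = 0.0460, 2 of 3 mice) that held in 5 of 16 alternative settings. It was not called without mouse 1 (1.17, adjusted p = 0.0593), mouse 2 (0.56, 0.443), mouse 3 (1.27, 0.0972), tumour 4 (0.99, 0.145) or the mouse block (1.04, 0.0722). Mural (23.1 ± 15.8 CPM) and basal cells (14.1 ± 4.43 CPM) did not pass. Thinned to 1000 UMIs, 19.2% of fibroblasts held a Tgfbr2 UMI, against 7.05% of endothelial cells and 1.80% of luminal cells, and unthinned the shares were 43.2%, 14.5% and 6.45%.

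Tgfbr3, the coreceptor, was also highest in fibroblasts, at 59.6, 73.8 and 58.0 CPM, with no value above 20.3 CPM elsewhere. It rose by 3.27 ± 0.26 over luminal cells (6.91, 3.59 and 8.91 CPM, edgeR adjusted p = 4.10e-11) and by 2.38 ± 0.34 over basal cells, the next class (adjusted p = 3.18e-06), in 3 of 3 mice. Macrophages were lowest, at 1.40 ± 1.18 CPM on 15 UMIs, and fell by 1.60 against luminal cells (SE 0.45, adjusted p = 0.00446, 3 of 3 mice). Basal (10.8 ± 5.78), endothelial (10.3 ± 10.2), mural (9.97 ± 1.74) and T cells (5.93 ± 0.44 CPM) did not pass. Basal cells did pass without mouse 2 (0.89, adjusted p = 0.0384). Among basal cells without luminal keratins Tgfbr3 was at 21.0 ± 3.15 CPM in 2 mice on 23 UMIs, 1.58 above luminal cells (edgeR adjusted p = 0.0434). In the whole basal gate the fibroblast markers Dcn, Pdgfra, Lum, Col1a2 and Dpt summed to 143, 5.74, 400 and 38.5 CPM in tumours 1 to 4. The part of fibroblast transcripts in basal Tgfbr3 was not tested. The type I and type II receptors were therefore highest in different classes. Without thinning, UMIs of both were found together in 75 of 1487 fibroblasts (5.04%), 92 of 2996 macrophages (3.07%) and 120 of 20499 luminal cells (0.585%). In these classes 168, 739 and 1233 cells held a Tgfbr1 UMI, and 643, 320 and 1323 cells a Tgfbr2 UMI. Whether both met in a cell more often than these counts alone would give was not tested.

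**Figure D4:**
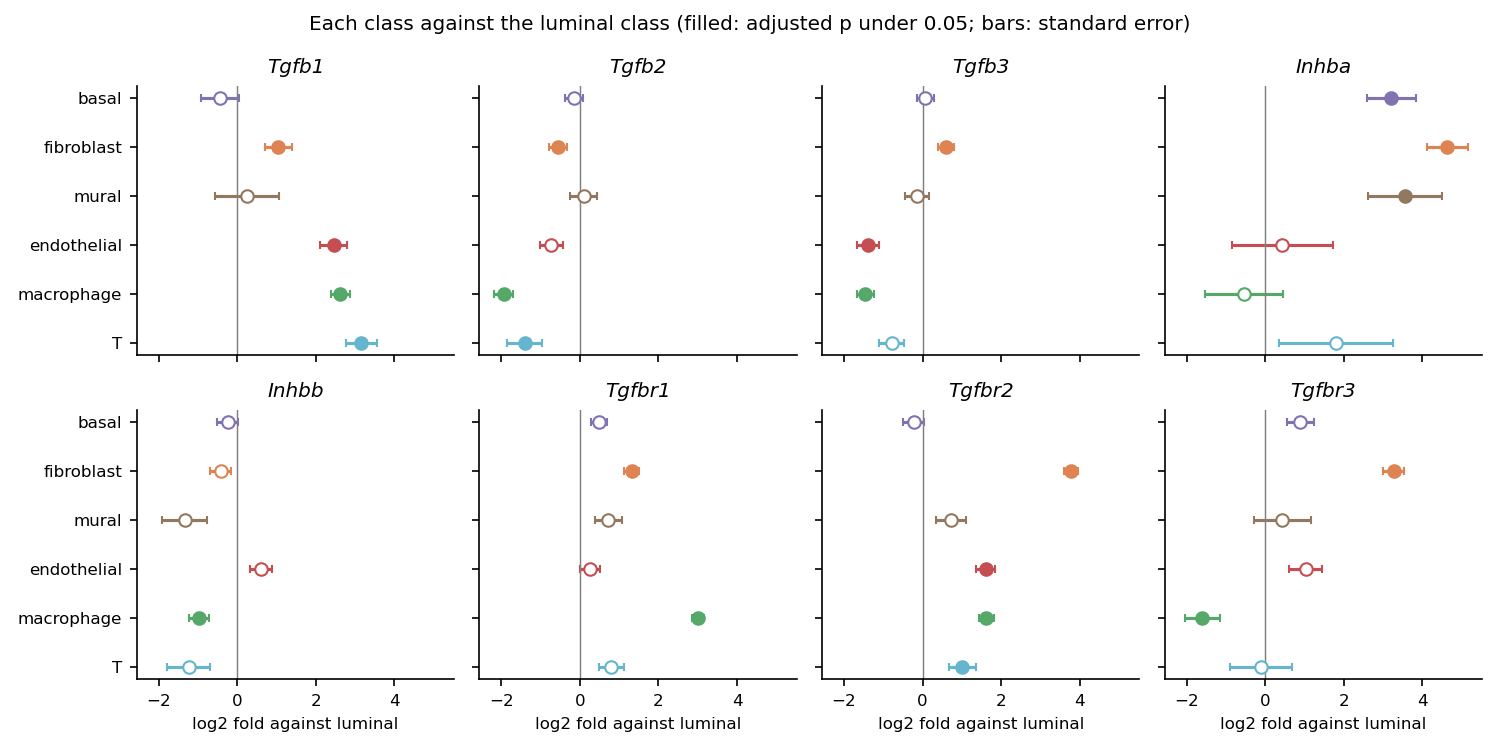
Log2 fold change of each gene in 6 classes against the luminal class (horizontal axis), with bars of 1 standard error; filled points passed at an adjusted p under 0.05. Receptors are filled to the right for fibroblasts (Tgfbr1 1.32, Tgfbr2 3.78, Tgfbr3 3.27), and for macrophages Tgfb2, Tgfb3, Inhbb and Tgfbr3 are filled to the left.

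Counted by class, fibroblasts had 6 of the 8 genes higher than luminal cells and 1 lower, and macrophages 3 higher and 4 lower. Over all 9105 genes, 25.7% were called higher and 25.5% lower in fibroblasts, and 22.7% higher and 23.0% lower in macrophages. Endothelial cells had 2 higher and 1 lower (18.4% and 17.8% of all genes), and T cells 2 higher and 1 lower (9.82% and 7.66%). Basal cells had 1 higher and none lower (5.0% and 2.62%), and mural cells 1 higher and none lower (8.79% and 6.17%). Those 0 lower calls are from edgeR, and DESeq2 also gave 0 in both classes. At an unadjusted p under 0.05 edgeR gave 0 lower in basal and 1, Inhbb, in mural cells. Without the mouse block the calls fell from 7 to 4 in fibroblasts and from 3 to 1 in T cells. The median log2 change of the 8 genes was 1.18 in fibroblasts, where that of all genes was -0.06, and -0.76 in macrophages, also beside -0.06. DESeq2's size factors moved the median of all genes by more than 0.1 in fibroblasts (to 0.10), endothelial cells (from -0.07 to 0.06) and mural cells (from -0.09 to 0.02). The split of higher and lower calls then changed from 2338 and 2324 to 2817 and 1714 genes in fibroblasts, from 1671 and 1622 to 1933 and 1237 in endothelial cells and from 800 and 562 to 884 and 343 in mural cells.

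Where the transcripts lay depended on how many cells a class held and on their depth. Median UMIs per cell ran over tumours from 2655 to 3664 in luminal cells, 1812 to 3469.5 in fibroblasts and 1343 to 2560 in macrophages. Luminal cells held 11006411, 33742906, 16723005 and 20221999 of all 20281799, 39370565, 29618360 and 31158441 UMIs of tumours 1 to 4. The shares of cells below therefore do not give the share of UMIs that depth alone would give. Luminal cells, 41.7% to 81.8% of the cells of a tumour, held 63.3% to 85.9% of its Tgfb3 UMIs and 60.5% to 90.6% of its Tgfb2 UMIs, but 28.0% to 66.1% of its Tgfb1 UMIs. Fibroblasts, 1.92% to 7.62% of the cells, held 20.2% to 33.7% of the Tgfbr2 UMIs and 25.0% to 43.3% of the Inhba UMIs. Macrophages, 5.27% to 11.7% of the cells, held 22.9% to 40.8% of the Tgfbr1 UMIs and 15.8% to 30.9% of the Tgfb1 UMIs. Luminal cells, being many, still held 29.8% to 65.3% of the Tgfbr1 UMIs (1307 in all, against 896 in macrophages) and 30.1% to 61.5% of the Tgfbr2 UMIs (1425, against 946 in fibroblasts). The rest lay in the other classes and in cells of no gate or several gates. Cells of no gate were 43.6% of the cells of tumour 1 and 7.13% of those of tumour 2. Over tumours they held 5.09% to 24.5% of the Tgfb1, 3.27% to 33.1% of the Tgfb2 and 3.55% to 28.5% of the Tgfb3 UMIs. For Inhbb this was 2.61% to 39.2%, for Tgfbr1 2.59% to 24.6%, for Tgfbr2 4.48% to 26.8% and for Tgfbr3 7.5% to 42.5%. The ranges of the named classes therefore also depend on how many cells passed a gate.

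Single tumours stood apart for several of the genes. Luminal Tgfb3 was at 82.8, 40.2, 81.7 and 83.5 CPM in tumours 1 to 4, with an exact Poisson interval of 38.1 to 42.4 in tumour 2 and intervals from 77.4 upward in the others. Luminal Tgfbr3 was also lowest in tumour 2, at 3.59 CPM (2.98 to 4.29) against 6.91, 8.25 and 9.45 CPM in tumours 1, 3 and 4. Tumour 1 was highest for luminal Tgfb1, at 7.18 CPM (5.68 to 8.95) against 3.47 to 3.95 CPM elsewhere, and lowest for luminal Inhbb, at 15.0 CPM (12.8 to 17.5) against 22.2 to 24.5 CPM. Tumour 2 was the deepest library and held the most luminal cells, and the luminal markers in its luminal cells, 1232 CPM, were within the range of the other tumours (1207 to 1275). The fibroblasts of tumour 3, thoracic, and tumour 4, inguinal, came from mouse 3. Tgfbr2 was at 137 CPM (121 to 154) in tumour 3 and at 283 CPM (255 to 314) in tumour 4, and Tgfb3 at 59.2 CPM (49.1 to 70.7) and 125 CPM (107 to 146). Inhba was at 13.7 CPM (9.10 to 19.8) and 26.1 CPM (18.1 to 36.5), while Tgfbr1 (39.6 and 42.2 CPM) and Tgfbr3 (58.2 and 57.5 CPM) were close. Tumours 1 and 2 held fibroblast Tgfbr2 at 238 and 275 CPM and Tgfb3 at 142 and 97.9 CPM, so tumour 3 was the lowest of the 4 for both. The 5 fibroblast markers (Dcn, Pdgfra, Lum, Col1a2 and Dpt) summed to 8542 CPM in the fibroblasts of tumour 3 and 9106 in tumour 4, and the neutrophil markers to 230 and 25.3 CPM. Their part in the difference was not tested. With 1 library per gland, the gland cannot be told apart from the library. Macrophage Tgfbr1 was at 105, 120, 124 and 118 CPM, with overlapping intervals.

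**Figure D5:**
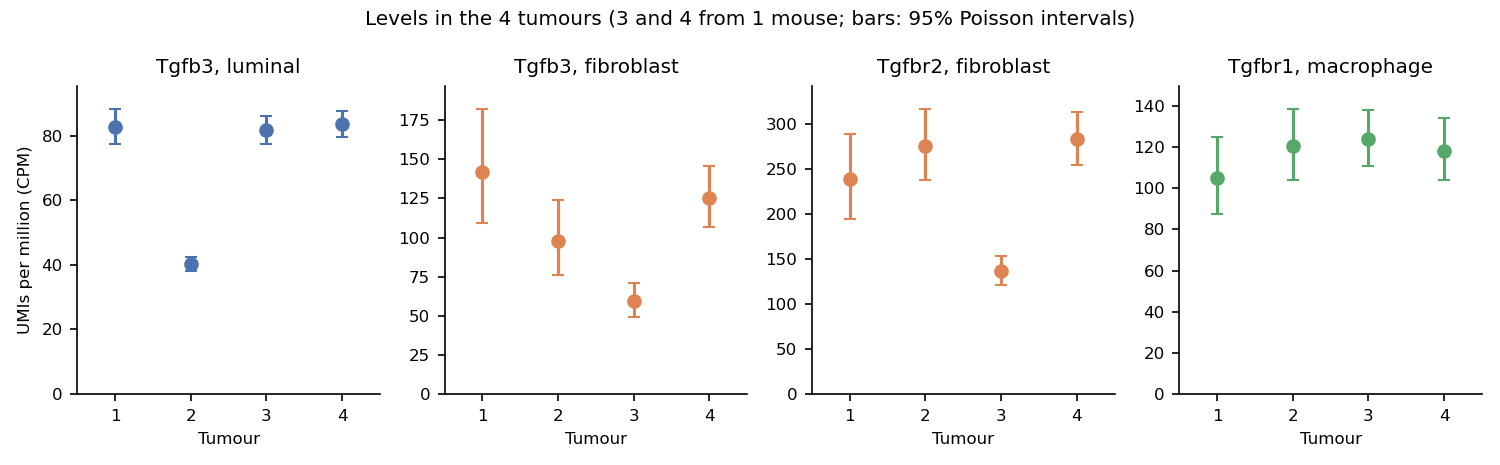
Level of Tgfb3 in luminal cells and fibroblasts, Tgfbr2 in fibroblasts and Tgfbr1 in macrophages in each of the 4 tumours (vertical axis, CPM, from 0), with 95% Poisson intervals of counting error. Luminal Tgfb3 is low in tumour 2 (40.2), fibroblast Tgfb3 and Tgfbr2 are low in tumour 3 (59.2 and 137), and macrophage Tgfbr1 is alike in all 4.

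Other genes of the pathway, in 6 lists of 62 genes of which 41 passed the filter, were compared in the same fit. In fibroblasts 29 of the 41 were higher than in luminal cells and 1 was lower, with a median log2 change of 1.36. Of all genes, 25.7% were called higher and 25.5% lower there. The 12 response genes led, with 10 higher, among them Lox, which crosslinks collagen (188 ± 62.5 against 0.325 ± 0.21 CPM, log2 change 9.13, edgeR adjusted p = 4.74e-16), Fn1 for fibronectin (1375 ± 515 against 4.34 ± 1.19 CPM, 8.26) and Tagln for transgelin (595 ± 205 against 3.38 ± 1.74 CPM, 7.62). These genes are also matrix and contractile genes of fibroblasts in general. Of 11 genes of latency and activation tested, 7 were higher and 1 lower, and all 4 other receptors tested were higher.

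In endothelial cells 20 of 41 pathway genes were higher and 2 lower (18.4% and 17.8% of all genes), with a median of 1.20. Eng, the endothelial coreceptor endoglin, was at 384 ± 56.8 against 1.99 ± 1.02 CPM (log2 change 7.30, edgeR adjusted p = 2.83e-18), Itga5, a fibronectin receptor subunit, at 70.1 ± 17.7 against 0.310 ± 0.24 CPM (7.30), and Nrros, which anchors latent TGF-beta on cells, at 31.9 ± 15.7 against 0.330 ± 0.29 CPM (6.14). The BMP receptor gene Bmpr1a and Ltbp3, for a latent TGF-beta binding protein, were lower, by -1.60 and -1.14 on the log2 scale. Macrophages had 16 higher and 8 lower (22.7% and 23.0% of all genes), with a median of 0.36. There the response gene Tgfbi was at 136 ± 27.6 against 0.924 ± 0.31 CPM (log2 change 7.33, adjusted p = 3.43e-17), Nrros at 30.1 ± 9.71 CPM (6.52) and Fn1 at 65.2 ± 12.7 CPM (4.12). Bmpr1a (-1.31), Thbs1, an activator of latent TGF-beta (-1.19), and Ltbp3 (-1.09) were lower there. The summed luminal markers were at 34.0% of their luminal level in endothelial cells and 29.2% in macrophages. The part of luminal transcripts in the levels of the lower genes was not tested.

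Basal cells had 12 of 41 pathway genes higher and 0 lower by edgeR (0 lower also at an unadjusted p under 0.05), and mural cells 12 higher and 1 lower. Of all genes, 5.0% were called higher and 2.62% lower in basal cells, and 8.79% and 6.17% in mural cells. Acta2, smooth muscle actin, was at 205 ± 147 CPM in basal and 1338 ± 490 CPM in mural cells against 4.79 ± 3.25 CPM in luminal cells (log2 changes 5.28 and 8.09, edgeR adjusted p = 1.60e-07 and 2.13e-11), and Tagln at 98.8 ± 53.0 and 443 ± 180 CPM (4.73 and 6.95). Both are contractile genes of these cell types. Ccn2 in basal cells (39.4 ± 26.6 CPM, 2.41) and Fn1 in mural cells (141 ± 13.2 CPM, 4.84) were also higher, and Skil, a SMAD repressor, was lower in mural cells (19.2 ± 3.06 against 44.6 ± 8.53 CPM, -1.37). T cells had 2 higher and 3 lower (9.82% and 7.66% of all genes). Acta2 was higher there at 42.0 ± 62.8 CPM (3.65, edgeR adjusted p = 0.00170), beside basal markers from 0 to 72.9 CPM over mice. The fibroblast markers ran there from 30.6 to 136 CPM over mice. The mural markers Cspg4, Notch3, Kcnj8, Abcc9 and Pdgfrb ran from 12.2 to 18.7 CPM. The part of transcripts from other cells in T-class Acta2 was not tested. Pmepa1, a TGF-beta-induced inhibitor of the pathway, was lower (113 ± 18.5 against 199 ± 35.7 CPM, -0.75), as was Ltbp3 (27.6 ± 3.41 CPM, -0.75). The summed luminal markers were at 51.1% of their luminal level in the T class. The part of luminal transcripts in these 2 levels was not tested.

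Genes whose levels followed each member most closely were found by Pearson's r of log2(CPM + 1) over the 21 sums of mouse and class, among 7446 genes. The sums share mice and libraries, so r is a description. Tgfbr1 was most like Lst1 (r = 0.94), Ctsz (0.91) and Tmem119 (0.86), all highest in macrophages. Tgfbr2 was most like Gm37333 (0.89), Slc50a1 (0.87) and C1ra (0.85), and Tgfbr3 like Serf1 (0.86), Plod2 (0.86) and Abi3bp (0.86), all highest in fibroblasts. Inhba was most like Dkk3 (0.94), Adamts15 (0.86) and Osr1 (0.85), also fibroblast-high. Tgfb3 was most like Serf1 (0.89), Ltbp3 (0.86) and Romo1 (0.85). For Tgfb1 the genes were Gng2 (0.86), Tbcb (0.84) and Dnajc2 (0.84), for Tgfb2 Pgpep1 (0.88), Fasn (0.88) and Naxd (0.87), and for Inhbb Slc43a3 (0.84), Ptdss1 (0.83) and Cdk2ap1 (0.83).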

How the data were processed

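The authors deposited unnormalized UMI counts, genes by barcodes, for 4 libraries from 3 mice. Per the submitters' processing notes FastQC and Cell Ranger 2.2.0 were used with mm10 (GRCm38); the annotation release is not given in the sources used here. From these counts, 24 of 36162 barcodes were removed for holding fewer than 300 genes, or 15% or more mitochondrial UMIs, and the rest were gated into classes. No doublet caller was used; leaving out the 5% of cells with most UMIs was tried instead. Counts were summed per mouse and class, at least 20 cells a sum, and fitted in edgeR 4.0.16 (R 4.3.3; TMM, filterByExpr, quasi-likelihood, mouse as block) over 21 sums. All 21 pairs of classes were contrasted. The pairing is by animal: every mouse gave every class. Thinning drew 1000 UMIs per cell, leaving out between 10 and 141 shallower cells a class. The fit was tested on simulated data. Alternatives were 16 settings, among them DESeq2 1.42.0; 1, leaving out the basal cells of mouse 2, was added after seeing the data. Pathway genes named were the 3 highest and 3 lowest called per class, changed alike in 3 of 3 mice and at 20 CPM or more. Members, gates and lists were chosen with earlier results of these data known. Replicates are mice. With mouse as a block, p-values measure how class differences vary between 3 animals, with a spread shared over the 7 classes.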

Additional observations from a re-analysis of the deposited data

Results flagged for a closer look

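Among 44 sets of 4 tumours with at least 20 UMIs for a gene in a class, 6 had 1 tumour far from the other 3. For 4 independent normal values, chance alone marks about 1 in 20 such sets. Tumours 3 and 4 came from 1 mouse and the sums differed in depth, so the rate here is not known. Tgfb1 in luminal cells was highest in tumour 1, at 7.18 CPM. Tgfb3 in luminal cells was lowest in tumour 2, at 40.2 CPM. Tgfbr3 in fibroblasts was highest in tumour 2, at 73.8 CPM. Tumour 1, the shallowest library, was lowest for Tgfb2 in endothelial cells, at 0.0 CPM, for Tgfbr2 in endothelial cells, at 31.8 CPM on 4 UMIs, and for Inhbb in basal cells, at 0.0 CPM. A count of 0 there allows up to 3 UMIs, which is 23.8 CPM in the endothelial sum of tumour 1 and 14.3 CPM in the basal one. The upper ends of the exact 95% Poisson intervals, which are two-sided and therefore wider, are 29.3 and 17.6 CPM. Both kinds of limit cover counting error only.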

How the results depend on the processing

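Calls against luminal cells held in all 16 alternative settings for Tgfb1 in endothelial cells and macrophages, for Tgfb2, Tgfb3, Tgfbr1, Tgfbr2 and Tgfbr3 in macrophages, for Tgfb3 and Tgfbr2 in endothelial cells and for Tgfbr1, Tgfbr2 and Tgfbr3 in fibroblasts. Of the single-gene changes, 643 values kept direction and side of the threshold, 40 lost and 25 gained a call, and 24 reversed; the causes were not tested. Counts of the 8 genes called moved as follows. In basal cells (1) the count was 2 with cells of several gates assigned in order or luminal-keratin cells left out, 0 without the 5% of cells with most UMIs or with gate minimums doubled, and 0 to 2 with a mouse or tumour left out. In fibroblasts (7) it was 4 without the replicate block, 3 with doubled minimums, and 4 to 7 with a mouse or tumour left out. In mural cells (1) it was 0 with sums per tumour, without the top 5% or with doubled minimums, 2 without luminal-keratin cells, and 0 to 2 with a mouse or tumour left out. In endothelial cells (3) it was 5 with sums per tumour. In T cells (3) it was 1 without the replicate block, 5 without luminal-keratin cells, and 0 to 2 with a mouse or tumour left out. Inhba failed the low-count filter in 6 settings, which lowers these counts.

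Over all genes, calls in basal cells (694) were 1141 without the filter, 308 without the replicate block, 1069 without luminal-keratin cells and 155 to 941 with a mouse or tumour left out. Fibroblast calls (4662) were 7084 without the filter and 2484 to 4768 with a mouse or tumour left out. With a mouse or tumour left out, calls ran from 552 to 1267 in mural (1362), 1771 to 3043 in endothelial (3293), 2138 to 4383 in macrophage (4161) and 694 to 1464 in T cells (1591).

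The log2 difference between fibroblasts and basal cells for Tgfb3 became called with DESeq2's size factors (0.61) and without luminal-keratin cells (1.67), and ran from 0.26 to 0.93 with a mouse or tumour left out. That for Inhba became called with those size factors (1.52), without the filter (1.44) and without luminal-keratin cells (2.32), and ran from 1.51 to 1.75. That for Inhbb between endothelial and luminal cells became called with DESeq2 (0.83). Apart from counts and the calls given beside the results, the replicate block changed no call against luminal cells.

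Of the reversed log2 changes against luminal cells, Tgfb3 in basal cells without luminal keratins (-1.18, edgeR adjusted p = 0.0245) was the 1 that passed the test. It rested on 34 UMIs in 2 mice and on cells chosen by luminal keratins. Tgfb3 in basal cells was otherwise -0.038 without the filter, -0.015 without the replicate block, -0.0071 without the top 5%, -0.25 with doubled minimums and from -0.034 to 0.17 with a mouse or tumour left out. With a mouse or tumour left out, Tgfb1 ran from -0.92 to 0.052 in basal cells and from -0.32 (without mouse 1) to 0.82 in mural cells, where it was -0.44 with doubled minimums. Tgfb2 then ran from -0.29 to 0.23 in basal cells and from -0.0047 to 0.26 in mural cells, where it was -0.057 without the filter, -0.0095 with several gates in order and -0.0016 without luminal-keratin cells. In mural cells Tgfb3 ran from -0.60 to 0.018 and Tgfbr2 from -0.33 (without mouse 3) to 0.94. Tgfbr1 in endothelial cells was -0.29 with doubled minimums. Tgfbr3 in T cells ran from -0.42 to 0.22, and was 0.17 without luminal-keratin cells, 0.10 without the top 5% and 0.55 with doubled minimums.

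Shares of cells with a UMI rise with depth. At 1500 UMIs and unthinned they were 4.46% and 8.40% for Tgfb2 in mural cells, 12.3% and 21.2% for Tgfb3, 2.48% and 4.30% for Inhba, 27.4% and 43.2% for Tgfbr2 and 9.93% and 16.3% for Tgfbr3 in fibroblasts, 5.60% and 8.36% for Inhbb in endothelial cells and 16.7% and 24.7% for Tgfbr1 in macrophages. Tgfb1 in T cells was at 9.07% unthinned. Values on under 20 UMIs, as in mural and T cells, are limited by counting.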
